A study of Homo sapiens with 9 samples.

Results

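The genes described here make small RNAs or carry them: DROSHA and DGCR8 of the nuclear Microprocessor, the export receptor XPO5, DICER1 and its partner TARBP2, the Argonautes AGO1, AGO2, AGO3 and AGO4, and the effector TNRC6A. They were chosen by name for their roles, with earlier results of these data known, and are 10 of the 31004 genes in the table. All 10 had reads in every library, and 9 passed the filter for testing, which asked that 3 or more of the 9 libraries reach 1 FPKM. AGO3 did not pass.

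MDA-MB-468 is a human breast cancer line of the basal-like, triple-negative kind. The study used lentiviral short hairpin RNAs to lower FAM83H-AS1, a long noncoding RNA. A control group carried the hairpin shNC, and the knockdown groups carried shFAM83H-AS1_1 or shFAM83H-AS1_2, with 3 libraries of total RNA in each group. All 3 groups were wild type by label, were transduced at an MOI of 10 with a lentivirus and were made into stable lines under puromycin (1 µg/mL). Cells without a hairpin were not analysed here, and the labels do not say whether the cells were cloned after selection or whether a group's 3 libraries stem from different cultures. The p-values therefore measure only the spread between these libraries, which may be technical.

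In animal cells a microRNA begins as a hairpin in a longer transcript, which Microprocessor crops in the nucleus. Exportin-5 carries the hairpin to the cytoplasm, Dicer trims it to a short duplex, and an Argonaute keeps one strand, whose seed pairs with target messenger RNAs that TNRC6 proteins then help to repress and degrade. A short hairpin RNA expressed from a vector commonly enters this route at export, past DROSHA and DGCR8. Such a hairpin depends on the later proteins of the route. The design of the vectors used in these groups was not examined.

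DGCR8 and DICER1 hold microRNAs in their own transcripts, and these sequences are shown because their host's level is among the results. In the exons of DGCR8, miR-3618 lies in the untranslated region and miR-1306 in the coding sequence, and in an intron of DICER1 lies miR-3173. The mature sequences from RefSeq (GRCh38.p14) are given 5′ to 3′, with the seed, bases 2 to 8, in capitals. They lie at chr22:20085797-20085818 (plus strand), chr22:20086072-20086093 (plus), chr22:20086112-20086129 (plus), chr14:95137961-95137982 (minus) and chr14:95137923-95137944 (minus), in the order printed.
hsa-miR-3618: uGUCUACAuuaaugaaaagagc
hsa-miR-1306-5p: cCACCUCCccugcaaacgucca
hsa-miR-1306-3p: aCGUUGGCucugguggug
hsa-miR-3173-5p: uGCCCUGCcuguuuucuccuuu
hsa-miR-3173-3p: aAAGGAGGaaauaggcaggcca
No seed occurred more than once among them. Mature microRNAs were not measured by these libraries, which report the genes that host them.

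Libraries held 15270673 to 18115070 reads by the depth used for scaling, and the 10 genes had 85 to 2354 reads each. The target FAM83H-AS1, listed in the gene name table as IQANK1, was at 17.9, 17.5 and 14.3 FPKM with shNC, at 7.37, 5.54 and 4.93 with shFAM83H-AS1_1 and at 8.56, 7.92 and 7.46 with shFAM83H-AS1_2, so each hairpin group lay below the control group without overlap. The log2 differences were -1.35 (limma adjusted p = 0.00637) and -0.96 (adjusted p = 0.142). Of the markers of the line, ESR1 was at 0.121 to 0.316 FPKM, ERBB2 at 4.51 to 9.23, EPCAM at 101 to 179, KRT5 at 31.5 to 160 and EGFR, which is amplified in this line, at 5.29 to 10.3. PTPRC, CD68 and CD3E of leukocytes did not exceed 0.0285 FPKM in any library. COL1A1 reached 2.73 FPKM and PECAM1 0.706. One library stood apart: shFAM83H-AS1_1 replicate 3 lay at 61.2 on principal component 1 (53.5% of the variance), against -24.3 to 5.66 for the other 8, and its 10665 genes at 1 FPKM or above were the fewest. Most differences with shFAM83H-AS1_1 are therefore given without it as well.

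None of the 9 tested genes passed the test for a difference between groups. With shFAM83H-AS1_1 against shNC, 0 of 9 passed an adjusted p of 0.05 in limma over 11875 genes, where 1.57% of all tested genes passed. With shFAM83H-AS1_2 against shNC it was 0 of 9, with 0.0253% of all genes, and between the hairpins 0 of 9, with 0.0926%. An F test over the 3 groups also called 0 of 9, with 0.371% of all genes. At an unadjusted p of 0.05, TARBP2, DGCR8 and AGO2 passed with shFAM83H-AS1_1, where 25.3% of all tested genes did. None passed at that level with shFAM83H-AS1_2, and AGO2 alone passed between the hairpins. A count-based fit (limma with voom on reads recovered from the FPKM values) also called 0 of 9 in each comparison, with 3, 0 and 1 of them at an unadjusted p of 0.05. The comparisons with shNC share the control libraries, so their values are given side by side.

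**Figure D1:**
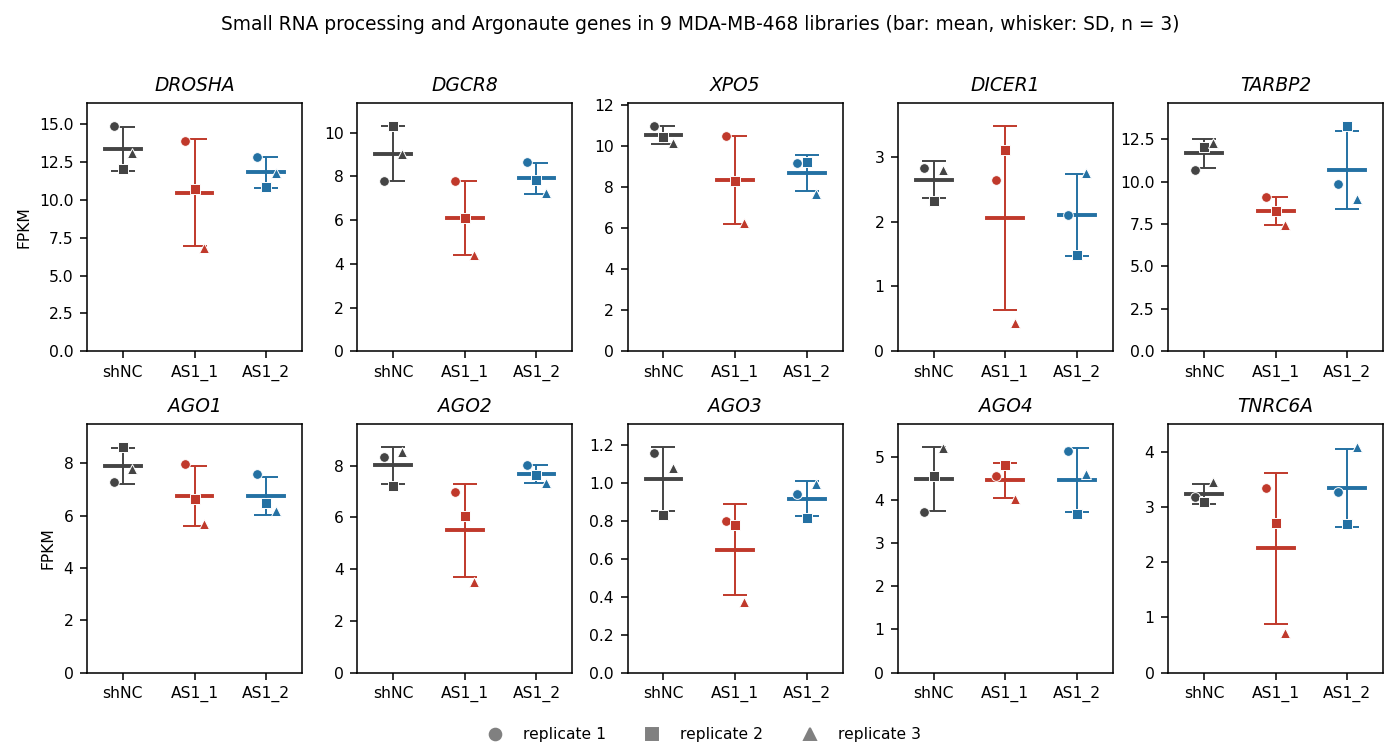
FPKM (y axis, from 0, a separate scale for each gene) of the 10 genes in the 3 groups (x axis, AS1_1 and AS1_2 being the hairpins against FAM83H-AS1). Symbols are single libraries by replicate number, bars are means and whiskers SD (n = 3). The lowest point is shFAM83H-AS1_1 replicate 3 for every gene but AGO4, and DICER1 and TNRC6A fall to 0.432 and 0.718 FPKM there.

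DROSHA, the RNase III enzyme of Microprocessor (ENSG00000113360, hg38 chromosome 5, 31400497 to 31532196, minus strand), was the most abundant of the 10 per length. It was at 14.9, 12.0 and 13.1 FPKM with shNC, at 13.8, 10.7 and 6.80 with shFAM83H-AS1_1 and at 12.8, 10.8 and 11.7 with shFAM83H-AS1_2. The groups overlapped, and only shFAM83H-AS1_1 replicate 3 lay well below the rest. The log2 difference was -0.37 with shFAM83H-AS1_1 (SE 0.21, limma adjusted p = 0.284) and -0.16 with shFAM83H-AS1_2 (adjusted p = 0.91). Without that library the first value was -0.12.

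DGCR8 encodes the double-stranded RNA-binding partner that positions DROSHA on the hairpin (ENSG00000128191, chromosome 22, 20080232 to 20111877, plus strand). It was at 7.77, 10.3 and 9.02 FPKM with shNC, at 7.78, 6.09 and 4.39 with shFAM83H-AS1_1 and at 8.67, 7.82 and 7.26 with shFAM83H-AS1_2. The highest shFAM83H-AS1_1 library just exceeded the lowest control library. Its log2 difference with shFAM83H-AS1_1, -0.52 (SE 0.18, 95% interval -0.93 to -0.12), was the lowest of the 9, and it did not pass over all genes (limma adjusted p = 0.133). It was -0.34 without shFAM83H-AS1_1 replicate 3 (adjusted p = 0.265) and -0.17 with shFAM83H-AS1_2 (adjusted p = 0.887). The transcript that carries miR-3618 and miR-1306 was thus not shown to differ.

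XPO5, the receptor that exports pre-microRNAs and short hairpin RNAs (ENSG00000124571, chromosome 6, 43522334 to 43576038, minus strand), was at 11.0, 10.5 and 10.1 FPKM with shNC. With shFAM83H-AS1_1 it was at 10.5, 8.31 and 6.26, and with shFAM83H-AS1_2 at 9.18, 9.23 and 7.68. All 3 shFAM83H-AS1_2 libraries lay below all 3 controls, which held for 1 of the 9 tested genes and for 10.9% of all tested genes. The log2 difference was -0.25 with shFAM83H-AS1_2 (SE 0.17, 95% interval -0.63 to 0.12, limma adjusted p = 0.796) and -0.33 with shFAM83H-AS1_1 (adjusted p = 0.244), which became -0.16 without replicate 3 of that group (adjusted p = 0.589). In a fit of these groups alone that paired libraries by number, 5.2% of all genes passed and 0 of the 9 did, and XPO5 had an adjusted p of 0.105. The gene spans of XPO5 and POLR1C, introns included, overlap on opposite strands by 40086 bp. Of 8802 stretches of 50 bases in XPO5 transcripts, 223 (2.53%) also occur in transcripts of other genes, POLR1C among them. As the strand setting of the counting is not given in the sources used here, reads of one gene could be counted for the other. POLR1C had 3.97 to 5.90 FPKM.

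DICER1, the cytoplasmic RNase III enzyme (ENSG00000100697, chromosome 14, 95086228 to 95158010, minus strand), was far lower per length than its nuclear counterpart DROSHA. It was at 2.83, 2.31 and 2.79 FPKM with shNC, at 2.64, 3.10 and 0.432 with shFAM83H-AS1_1 and at 2.09, 1.48 and 2.74 with shFAM83H-AS1_2. The library that stood apart was at 15.1% of the mean of its 2 replicates, from 85 reads, while replicate 2 of the same group was the highest of all 9. The log2 difference with shFAM83H-AS1_1 was -0.39 (SE 0.35, 95% interval -1.16 to 0.38, limma adjusted p = 0.469) and became 0.09 without replicate 3 (adjusted p = 0.847). With shFAM83H-AS1_2 it was -0.25 (adjusted p = 0.919). Its transcript has 39.2% GC, the second lowest of the 10.

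TARBP2 encodes TRBP, which binds double-stranded RNA beside Dicer (ENSG00000139546, chromosome 12, 53500921 to 53506431, plus strand). It was at 10.7, 12.0 and 12.3 FPKM with shNC, at 9.07, 8.27 and 7.46 with shFAM83H-AS1_1 and at 9.84, 13.3 and 8.95 with shFAM83H-AS1_2. All 3 shFAM83H-AS1_1 libraries lay below all 3 controls, whereas the shFAM83H-AS1_2 libraries lay on both sides. The mean with shFAM83H-AS1_1 was 70.8% of control, with a log2 difference of -0.45 (SE 0.15, 95% interval -0.79 to -0.11) that did not pass (limma adjusted p = 0.124). It was -0.39 without shFAM83H-AS1_1 replicate 3 (adjusted p = 0.23). With trends in GC content and length removed from each library, TARBP2 was the one gene of the 9 to pass, at -0.59 (adjusted p = 0.0434), where 2.59% of all tested genes passed as lower. The call was not made by that method without shFAM83H-AS1_1 replicate 3 (-0.46, adjusted p = 0.0596), an alternative added after seeing the data. With shFAM83H-AS1_2 the difference was -0.13 (adjusted p = 0.895).

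**Figure D2:**
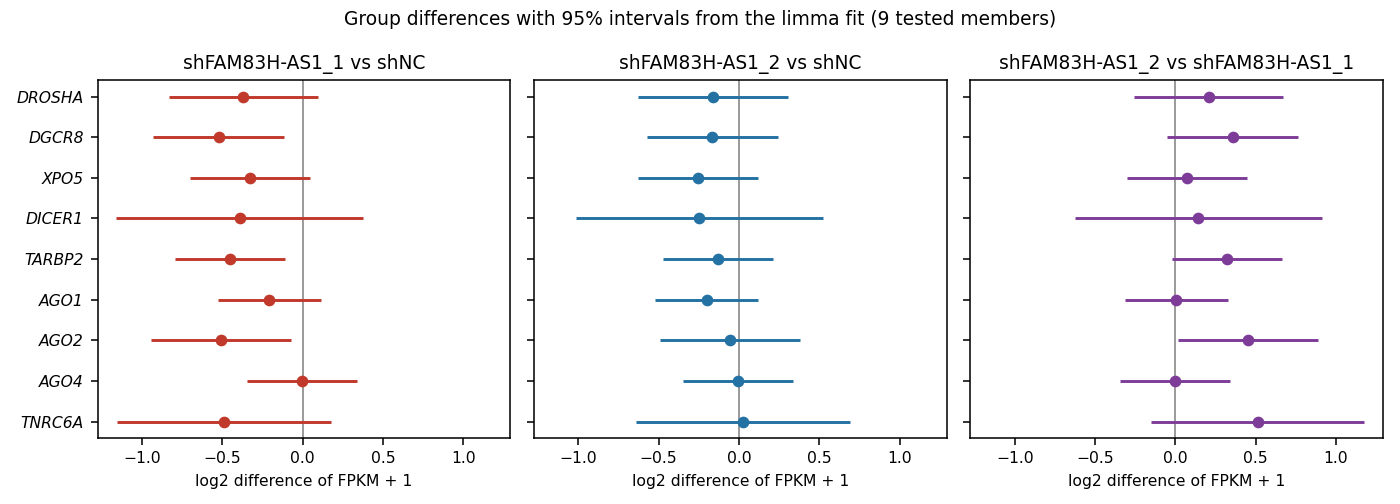
Log2 differences of FPKM + 1 (x axis) of the 9 tested genes (y axis) in the 3 comparisons, with 95% intervals from the limma fit. With shFAM83H-AS1_1 against shNC the points run from -0.52 (DGCR8) to 0.00 (AGO4), and the intervals of DGCR8, TARBP2 and AGO2 lie below 0 before any adjustment over genes.

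AGO2, the Argonaute best known for cutting targets that pair along their whole length (ENSG00000123908, chromosome 8, 140520156 to 140635633, minus strand), was at 8.33, 7.21 and 8.53 FPKM with shNC. With shFAM83H-AS1_1 it was at 6.97, 6.05 and 3.50, and with shFAM83H-AS1_2 at 8.03, 7.65 and 7.32. The shFAM83H-AS1_1 libraries lay below every library of both other groups. TARBP2 and AGO2 were the 2 of 9 tested genes below control without overlap with shFAM83H-AS1_1, where 15.3% of all tested genes were, and AGO2 was the 1 of 9 higher with shFAM83H-AS1_2 than with shFAM83H-AS1_1 without overlap, where 6.13% of all tested genes were. Its log2 difference with shFAM83H-AS1_1 was -0.51 (SE 0.20, 95% interval -0.94 to -0.07, limma adjusted p = 0.154), and -0.26 without shFAM83H-AS1_1 replicate 3 (adjusted p = 0.286). The difference between the hairpins was 0.45 (SE 0.20, adjusted p = 0.614), and 0.21 without that library (adjusted p = 0.873). With shFAM83H-AS1_2 against shNC the difference was -0.06 (adjusted p = 0.965).

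The transcripts of the 10 genes share no stretch of 50 bases with each other, so the Argonautes could be told apart by reads of that length. Transcripts of other genes hold 2.5% of such stretches of AGO1, 1.86% of AGO3, 0.344% of AGO4 and 0% of AGO2. Of the 10 genes DGCR8 shares the most with other genes, 6.85%. AGO4, AGO1 and AGO3 lie in that order on the plus strand of chromosome 1, with 11917 bp between the first pair and 185 bp between the second. AGO1 (ENSG00000092847, 35869808 to 35930532) was at 7.29, 8.64 and 7.79 FPKM with shNC, at 7.96, 6.64 and 5.66 with shFAM83H-AS1_1 and at 7.59, 6.50 and 6.17 with shFAM83H-AS1_2. Its log2 differences were -0.21 and -0.20, with groups that overlapped (limma adjusted p = 0.368 and 0.813), and the first was -0.10 without shFAM83H-AS1_1 replicate 3. AGO4 (ENSG00000134698, 35808016 to 35857890) was at 3.74, 4.57 and 5.22 FPKM with shNC, at 4.56, 4.83 and 4.02 with shFAM83H-AS1_1 and at 5.16, 3.69 and 4.61 with shFAM83H-AS1_2. Its group means were 4.51, 4.47 and 4.49 FPKM, and the differences of 0.00 (95% interval -0.35 to 0.34) and -0.01 (-0.35 to 0.34) were the smallest of the 9. Without shFAM83H-AS1_1 replicate 3 the first was 0.06 (limma adjusted p = 0.89). AGO3 (ENSG00000126070, 35930718 to 36072500) was at 1.15, 0.833 and 1.08 FPKM with shNC, at 0.796, 0.775 and 0.372 with shFAM83H-AS1_1 and at 0.941, 0.813 and 0.993 with shFAM83H-AS1_2. AGO3 had the lowest level of the 10 in each group. Its shFAM83H-AS1_1 libraries lay below all others, by 0.796 against 0.813 FPKM at the closest. Of all tested genes, which leave out AGO3, 15.3% lay below control without overlap with shFAM83H-AS1_1 and 6.13% below shFAM83H-AS1_2. Tested without the filter, the difference of AGO3 from shNC was -0.30 with shFAM83H-AS1_1 (limma adjusted p = 0.422).

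The Argonautes were also compared as shares of their summed FPKM, which does not depend on a scaling common to all genes of a library. AGO2 held 40.6%, 33.9% and 37.7% of the sum with shNC, 34.4%, 33.1% and 25.8% with shFAM83H-AS1_1, and in turn 37.0%, 41.0% and 38.3% with shFAM83H-AS1_2. The means were 37.4% ± 3.36, 31.1% ± 4.61 and 38.8% ± 2.06 (SD, n = 3 each). An exact permutation test over the 3 groups (280 distinct assignments) gave p = 0.0679, where the smallest possible p is 0.00357. Between pairs of groups the exact two-sided permutation p was 0.2 for shFAM83H-AS1_1 against shNC, 0.6 for shFAM83H-AS1_2 against shNC and 0.1 between the hairpins, the smallest that 3 against 3 libraries allow. The shares of AGO1, AGO3 and AGO4 gave exact permutation p of 0.0929, 0.218 and 0.168 over the 3 groups. These 4 p-values are not adjusted, and the shares are not independent because they sum to the whole. Without shFAM83H-AS1_1 replicate 3 the difference of the AGO2 share from control went from -6.34 to -3.70 percentage points, and the exact permutation test over the 3 groups gave p = 0.193.

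**Figure D3:**
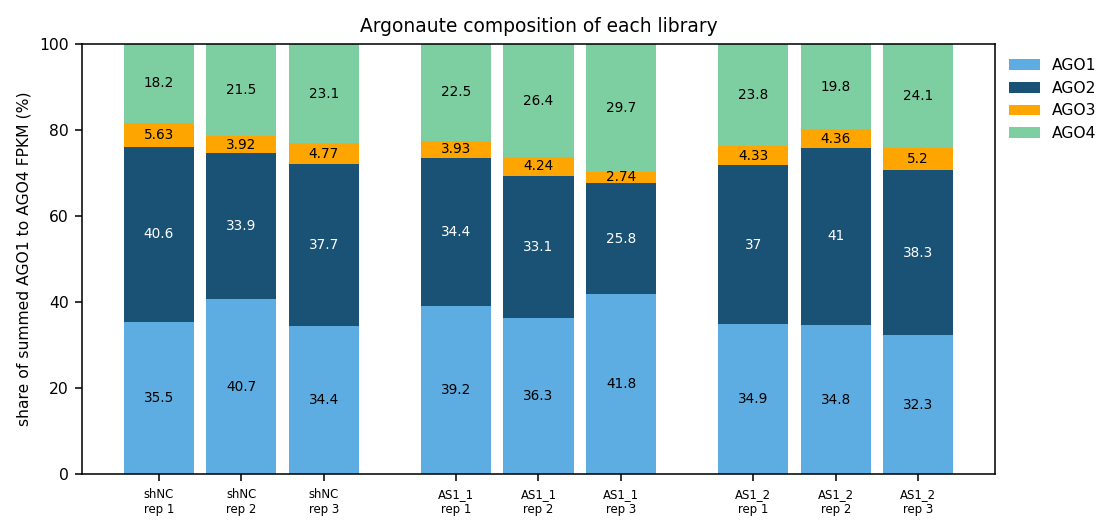
Share of the summed FPKM of AGO1 to AGO4 (y axis, percent) in each of the 9 libraries (x axis), one colour per gene. AGO2 takes 25.8% in shFAM83H-AS1_1 replicate 3 and 33.1% to 41.0% in the other 8, while AGO4 takes 29.7% in that library and 18.2% to 26.4% elsewhere.

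TNRC6A encodes GW182, which binds Argonautes and recruits the deadenylases (ENSG00000090905, chromosome 16, 24610209 to 24827632, plus strand). It was at 3.19, 3.10 and 3.45 FPKM with shNC, at 3.34, 2.72 and 0.718 with shFAM83H-AS1_1 and at 3.27, 2.69 and 4.10 with shFAM83H-AS1_2. The library that stood apart was at 23.7% of the mean of its replicates, and the other 8 ran from 2.69 to 4.10. The log2 difference with shFAM83H-AS1_1 was -0.49 (SE 0.30, 95% interval -1.15 to 0.18, limma adjusted p = 0.314), and -0.08 without replicate 3 (adjusted p = 0.837). With shFAM83H-AS1_2 it was 0.02 (adjusted p = 0.989).

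In control cells the order of the FPKM was DROSHA, TARBP2, XPO5, DGCR8, AGO2 and AGO1, each of whose ranges overlapped with the next, and then AGO4, TNRC6A, DICER1 and AGO3, each separate from the gene before it. Means ran from 13.3 ± 1.44 to 1.02 ± 0.168 FPKM (SD, n = 3). DROSHA was the highest and AGO3 the lowest with both other hairpins too. With shFAM83H-AS1_1 all neighbours overlapped except AGO4 and TNRC6A. With shFAM83H-AS1_2, AGO4 remained apart from AGO1 above it and AGO3 from DICER1, while TNRC6A and DICER1 overlapped with their neighbours.

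With shFAM83H-AS1_1 all 9 tested genes had a log2 difference below 0, where 57.9% of all tested genes did. The median of the 9 was -0.39, beside -0.08 over all tested genes. Without shFAM83H-AS1_1 replicate 3 the median was -0.12, beside -0.01, and 7 of 9 were below 0. With shFAM83H-AS1_2 the median was -0.16, beside -0.01 for all genes, with 8 of 9 below 0, where 51.8% of all tested genes were. In bulk RNA, fewer cells of one kind and less RNA per cell cannot be told apart.

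The levels in shFAM83H-AS1_1 replicate 3 moved with the GC content of transcripts over all genes. The Spearman correlation of its difference from the control mean with GC was 0.528 over 11835 genes, and with length it was -0.254. Trends with GC were also present elsewhere, with correlations of 0.664 in shFAM83H-AS1_2 replicate 2 and of -0.463 to 0.463 among the controls. By classes of GC, its median difference ran from -0.79 at up to 40% GC to 0.24 above 60%. The 10 genes have 38.9% (AGO3) to 60.8% (TARBP2) GC. In that library 8 of the 10 lay below the median of their GC class, among them DICER1 at -1.34 (class median -0.79), TNRC6A at -1.30 (-0.21), DGCR8 at -0.89 (0.00) and TARBP2 at -0.58 (0.24). AGO4 at -0.12 and AGO3 at -0.56 lay above theirs, -0.51 and -0.79. AGO3 averaged 1.02 FPKM in controls, a level at which log2(FPKM + 1) understates changes. It also did not pass the filter of the genes behind the class medians. With trends in GC and length removed, the median of the 9 genes with shFAM83H-AS1_1 was -0.23. The part of RNA quality or of library preparation in these differences was not tested.

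**Figure D4:**
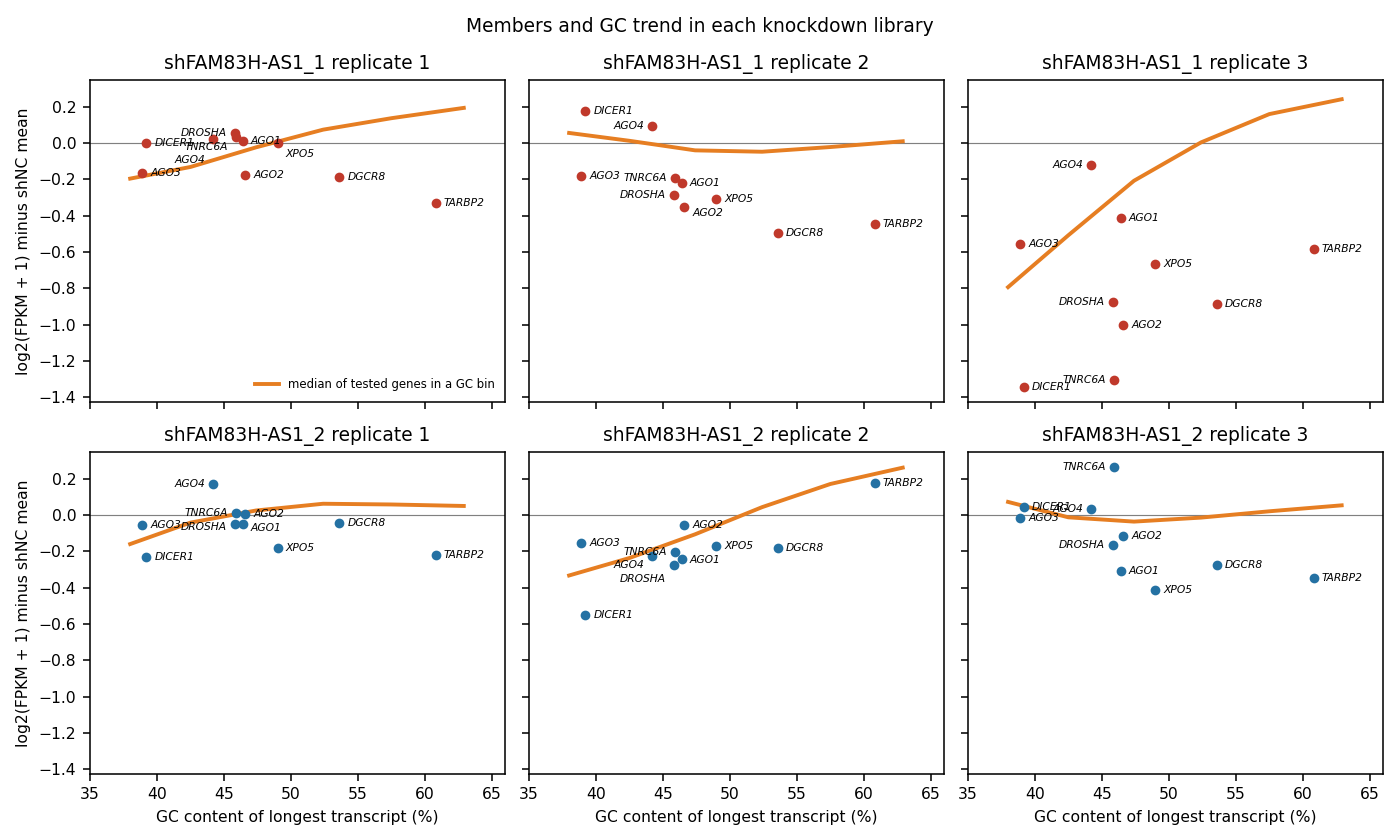
Difference of log2(FPKM + 1) from the mean of the 3 control libraries (y axis) against the GC content of the longest transcript (x axis, percent), one panel per library of the 2 hairpins. Points are the 10 genes and the line joins the medians of tested genes in 6 GC classes. In shFAM83H-AS1_1 replicate 3 the line climbs from -0.79 to 0.24 and DICER1 lies at -1.34; in shFAM83H-AS1_2 replicate 2 it climbs from -0.33 to 0.26.

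Across the 9 libraries the 10 genes had positive Pearson correlations of log2 values in 44 of 45 pairs, with a median r of 0.719 and the highest, 0.947, between AGO2 and AGO3. In the 8 libraries without shFAM83H-AS1_1 replicate 3, 32 of 45 were positive and the median r was 0.298. AGO2 and AGO3 were also the highest pair there, at 0.79, and DICER1 and TARBP2 the lowest, at -0.629. The genes most like each one, among 6456 tested genes with a mean of at least 5 FPKM, were DIAPH1 for AGO2 (r = 0.997; 0.979 over the 8 libraries), THOC1 for DICER1 (0.991; 0.967), KHDC4 for DROSHA (0.988; 0.952) and EIF3A for TNRC6A (0.987; 0.864). They were PWP2 for TARBP2 (0.984), TRAM2 for AGO3 (0.984), SNX19 for XPO5 (0.981), RABIF for DGCR8 (0.972), MARVELD3 for AGO1 (0.948) and TCEAL1 for AGO4 (0.900). The second most alike were KPNB1 for AGO2, BRCC3 for DICER1, ECPAS for DROSHA, PRRC2C for TNRC6A, BAP1 for TARBP2, PTPN14 for AGO3, PEA15 for XPO5, ZNF330 for DGCR8, ABCC5 for AGO1 and ADAM17 for AGO4. These values share the libraries and their depth and composition, and are descriptions.

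Other genes of the route were read from 7 lists by role, which include the 10 genes where they belong. No gene of these lists passed the test in any comparison between groups in the main fit, which pairs no libraries. Some passed in other fits, as given with their values. In the fit of shFAM83H-AS1_2 and shNC that paired libraries by number, where 5.2% of all genes passed, 2 list genes did, 1 of 11 in the tailing list (TENT2) and 1 of 8 microRNA hosts (MIR210HG). Among 17 tested genes of nuclear processing and export, 16 were below 0 with shFAM83H-AS1_1 (median -0.42) and 15 with shFAM83H-AS1_2 (median -0.17). Without shFAM83H-AS1_1 replicate 3 the first median was -0.23, beside -0.01 over all genes. DDX5, a helicase of the large Microprocessor complex, was at 90.6, 93.5 and 103 FPKM with shNC. With shFAM83H-AS1_1 it was at 66.6, 71.3 and 27.2, and with shFAM83H-AS1_2 at 79.4, 71.4 and 75.9. Both hairpin groups thus lay below control without overlap. Of all tested genes, 15.3% lay below control in this way with shFAM83H-AS1_1 and 10.9% with shFAM83H-AS1_2. The log2 differences of DDX5 were -0.90 and -0.34 (limma adjusted p = 0.119 and 0.859), and the first was -0.46 without that library (adjusted p = 0.0614). DDX17, its paralog (-0.49, adjusted p = 0.101), and SRSF3, a splicing factor that recognises a motif beside many hairpins (-0.61, adjusted p = 0.0762), had lower values in all libraries of both hairpins than in the controls. SMAD3, a TGF-beta signal transducer that binds Microprocessor, had higher ones, at 1.33 to 1.75 FPKM in the controls against 2.00 to 2.45 in the 6 hairpin libraries (0.40 with shFAM83H-AS1_1, adjusted p = 0.118). Without the library that stood apart these 3 differences were -0.32, -0.43 and 0.40. The share of all genes apart from control with both hairpins, or above it, was not computed. DDX5, DDX17, SRSF3 and SMAD3 were named for the smallest F test p of their list, which favours groups that lie apart.

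Of 16 tested Dicer partners and loading factors, 14 and 15 were below 0, with medians of -0.35 and -0.20, and the first was -0.17 without shFAM83H-AS1_1 replicate 3. STIP1, which links the chaperones HSP70 and HSP90, was at 168 to 178 FPKM in controls, 93.4 to 132 with shFAM83H-AS1_1 and 125 to 159 with shFAM83H-AS1_2 (log2 differences -0.58 and -0.26, limma adjusted p = 0.0757 and 0.765). HSP90AB1, the chaperone that holds Argonaute open for loading, had differences of -0.52 and -0.23 (adjusted p = 0.099 and 0.799). The values of TSN, a subunit of the nuclease C3PO, were -0.44 and -0.31, and those of IPO8, an importin that binds Argonaute, -0.69 and -0.25 (adjusted p = 0.117 and 0.736, 0.149 and 0.873). Without that library the values of STIP1, HSP90AB1, TSN and IPO8 with shFAM83H-AS1_1 were -0.43, -0.39, -0.31 and -0.34, and none passed.

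Among 32 tested genes of Argonaute-guided repression, 29 were below 0 with shFAM83H-AS1_1 and 24 with shFAM83H-AS1_2, with medians of -0.34 and -0.10. The first median was -0.13 without shFAM83H-AS1_1 replicate 3 and -0.15 with GC and length trends removed. LSM14A, a P-body protein, was at 103, 95.9 and 110 FPKM with shNC, at 62.5, 73.1 and 41.6 with shFAM83H-AS1_1 and at 87.2, 76.0 and 89.0 with shFAM83H-AS1_2. All 6 hairpin libraries lay below the controls. Of all tested genes, 15.3% lay below control without overlap with shFAM83H-AS1_1 and 10.9% with shFAM83H-AS1_2. The share with both was not computed, and LSM14A was named for its small F test p. Its log2 differences were -0.83 and -0.29 (limma adjusted p = 0.0569 and 0.783). LSM14A was the one gene of this list to pass without shFAM83H-AS1_1 replicate 3, at -0.60 (adjusted p = 0.0455), where 0.74% of all genes passed as lower. The decapping factors DCP1A (-0.63, adjusted p = 0.0831) and EDC3 (-0.49, 0.087), and FXR2, an RNA-binding protein of the fragile X family (-0.42, 0.0883), did not pass with shFAM83H-AS1_1, and without that library were at -0.46, -0.50 and -0.40. With GC and length trends removed LSM14A, DCP1A, EDC3, FXR2 and STIP1 passed as lower, with adjusted p of 0.0142, 0.0396, 0.0303, 0.0273 and 0.0429, where 2.59% of all genes passed as lower.

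Of 11 tested genes that tail or degrade small RNAs, 8 were below 0 with shFAM83H-AS1_1 (median -0.34) and 7 with shFAM83H-AS1_2 (median -0.04). The first median was -0.04 without shFAM83H-AS1_1 replicate 3 and -0.08 with GC and length trends removed. ERI1, an exonuclease, had differences of -0.67 and -0.36, EXOSC10 of the exosome -0.39 and -0.06, and PARN, a deadenylase, -0.36 and -0.10 (limma adjusted p of 0.149 or more). Without that library ERI1, EXOSC10 and PARN were at -0.35, -0.15 and -0.14 with shFAM83H-AS1_1. TENT2, a poly(A) polymerase named here after its values were seen, averaged 3.81 ± 0.601 FPKM in controls and 2.61 ± 0.586 under shFAM83H-AS1_2 (SD over 3 libraries). That difference of -0.42 had a limma adjusted p of 0.781, and of 0.0489 in the fit that paired libraries by number. ZSWIM8, the ubiquitin ligase adaptor that marks Argonaute for decay when a target pairs extensively with its microRNA, was higher by value, at 8.11, 9.24 and 9.44 FPKM with shNC, at 12.0, 10.5 and 14.8 with shFAM83H-AS1_1 and at 9.72, 11.4 and 11.7 with shFAM83H-AS1_2 (0.43 and 0.26, adjusted p = 0.124 and 0.764), the first being 0.30 without that library. Of the PIWI pathway, which guards the germline, 6 of 9 listed genes were in the table and only TDRKH, a mitochondrial tudor protein, was tested (-0.18, adjusted p = 0.459, and -0.32 without that library); PIWIL2, PIWIL3 and PIWIL4 did not exceed 0.0501 FPKM.

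Sensors of double-stranded RNA gave medians of -0.04 and -0.01 over 8 tested genes, beside -0.08 and -0.01 over all genes, with 4 and 5 below 0. The first median was 0.11 without shFAM83H-AS1_1 replicate 3 and 0.19 with GC and length trends removed. OAS1, a synthetase activated by double-stranded RNA, had differences of 0.34 and 0.12, DHX58, a RIG-I-like receptor, 0.39 and 0.09, and EIF2AK2, the kinase PKR, -0.48 and -0.02. None of the 3 passed (limma adjusted p of 0.207 or more), and without that library they were at 0.20, 0.26 and -0.08 with shFAM83H-AS1_1.

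**Figure D5:**
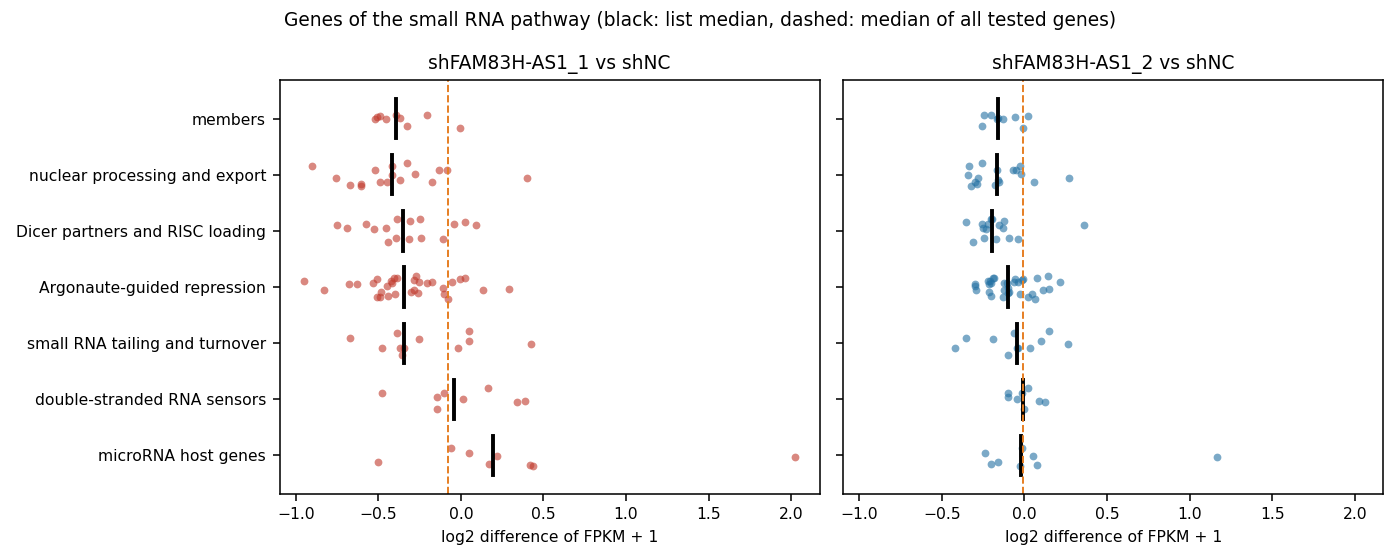
Log2 differences of FPKM + 1 (x axis) for the 2 hairpins against shNC. The rows (y axis) hold the tested genes of the 10 (members) and of each list by role except the PIWI pathway. Points are genes, black bars the median of the list and the dashed line the median of all tested genes (-0.08 and -0.01). The list medians run from -0.42 to 0.19 with shFAM83H-AS1_1 and from -0.20 to -0.01 with shFAM83H-AS1_2.

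Noncoding hosts of microRNAs supply the substrate of the route, and 8 of 52 listed hosts were tested. Their median was 0.19 with shFAM83H-AS1_1 and -0.02 with shFAM83H-AS1_2, with 2 and 5 of 8 below 0, and the first was 0.21 without shFAM83H-AS1_1 replicate 3. The mature microRNAs of the 4 named hosts are printed because their hosts have the smallest unadjusted p of the list, in RefSeq (GRCh38.p14) and with the seed, bases 2 to 8, in capitals. All lie on the strand of their host: those of MIR210HG at chr11:568112-568133 and chr11:568150-568171, of MIR22HG at chr17:1713914-1713935 and chr17:1713952-1713973, of H19 at chr11:1996768-1996787 and chr11:1996800-1996822 (all minus strand), and of MIR205HG at chr1:209432166-209432187 and chr1:209432203-209432223 (plus strand).
hsa-miR-210-3p: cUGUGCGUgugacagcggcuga
hsa-miR-210-5p: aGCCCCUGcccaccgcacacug
hsa-miR-22-3p: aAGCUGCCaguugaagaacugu
hsa-miR-22-5p: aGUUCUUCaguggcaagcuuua
hsa-miR-675-3p: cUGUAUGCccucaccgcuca
hsa-miR-675-5p: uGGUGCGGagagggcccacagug
hsa-miR-205-5p: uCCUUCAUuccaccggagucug
hsa-miR-205-3p: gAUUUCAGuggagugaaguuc
MIR210HG, the host of miR-210, a microRNA induced by low oxygen, was at 0.656, 1.44 and 0.842 FPKM with shNC, at 2.55, 5.49 and 20.7 with shFAM83H-AS1_1 and at 3.67, 2.49 and 4.16 with shFAM83H-AS1_2. All 6 hairpin libraries lay above the controls, and the highest by far was shFAM83H-AS1_1 replicate 3. The share of all genes with that pattern was not computed, and MIR210HG was named for its small F test p. Its log2 differences were 2.02 (SE 0.52, limma adjusted p = 0.0757) and 1.17 (SE 0.52, adjusted p = 0.736). Without shFAM83H-AS1_1 replicate 3 they were 1.30, which passed (adjusted p = 0.0468, where 0.978% of all genes passed as higher), and 1.17 (adjusted p = 0.0728). In the fit of shFAM83H-AS1_2 and shNC that paired libraries by number the value of 1.17 passed (SE 0.20, adjusted p = 0.0254). The hairpin of miR-210 has a row of its own with 7 reads over the 9 libraries, 5 of them in shFAM83H-AS1_1 replicate 3, and these do not measure the mature microRNA.

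MIR22HG, the host of miR-22, had a log2 difference of -0.50 with shFAM83H-AS1_1, from 2.78 ± 0.607 to 1.66 ± 0.392 FPKM (SD, n = 3 each, limma adjusted p = 0.129). H19, an imprinted transcript that holds miR-675 in an exon, was at 2.45 ± 0.698 and 3.61 ± 0.259 FPKM (0.44, adjusted p = 0.176). MIR205HG, which holds miR-205, a microRNA of basal epithelium, was at 2.87 ± 0.499 and 4.22 ± 1.09 FPKM (0.42, adjusted p = 0.273). With shFAM83H-AS1_2 these 3 hosts had differences of -0.16, -0.03 and 0.08 (adjusted p of 0.883 or more). Without shFAM83H-AS1_1 replicate 3 the differences of MIR22HG, H19 and MIR205HG with shFAM83H-AS1_1 were -0.38, 0.42 and 0.28. Of the 8 markers listed for the basal-like line, KRT5 alone passed in the main fit with shFAM83H-AS1_1 (1.63, limma adjusted p = 0.0158), where 1.57% of all tested genes did. The other basal genes KRT6B (-1.06), KRT17 (0.03) and EGFR (-0.07) did not pass there, nor did CDH1, EPCAM, KRT18 and KRT19, which ran from -0.28 to 0.98. Without shFAM83H-AS1_1 replicate 3, KRT5 (1.56, adjusted p = 0.0186) and KRT18 (0.59, 0.0467) passed, where 0.978% of all genes passed as higher. With GC and length trends removed, KRT5 (1.54, 0.00813) and CDH1 (0.61, 0.0353) passed, where 604 of 11835 genes did. With shFAM83H-AS1_2, KRT5 was at 1.29 (adjusted p = 0.148, and 0.0448 without that library). The part of these markers in the values of the hosts was not tested.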

How the data were processed

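RNA-seq of 9 libraries of MDA-MB-468 cells was read from a table of FPKM values per gene deposited by the authors, that is, reads scaled by gene length and library depth. Bowtie2 2.2.3, HISAT2 2.1.0 and HTSeq 0.6.0 are named, with the build hg38 but no roles, per the submitters' processing notes. How strand was handled, and which annotation was counted, is not given in the sources used here. A stray line (1 of 31005) was left out. For 30883 genes the symbol was taken from a gene name table, for 107 from GENCODE 29 alone. Coordinates are those of the deposited table, and GC content and exon positions come from GENCODE 29. Reads behind each FPKM value were recovered from its steps, whole within 1e-05 reads for 100% of genes, and gave lengths and depths. Counting error alone does not set the spread: chi-square per degree of freedom between replicates was 12.5 to 97.0.

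The 3 contrasts and an F test over groups were fitted with limma 3.58.1 (R 4.3.3; moderated, variance trend, two-sided) on log2(FPKM + 1), which understates changes of low genes, with all 9 libraries and 11875 genes at 1 FPKM or more in at least 3 libraries. P-values were adjusted by Benjamini-Hochberg over these genes, threshold 0.05. Steps were tested on simulated data. Shares of Argonautes were compared by exact permutation. Tables and plots were made in Python 3.11.15 (matplotlib 3.10.9, pandas 2.3.3, numpy 2.4.6).

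The genes and lists were chosen with earlier results of these data known. The text names the 10 genes, the target, the 4 other tested genes of each list with the smallest p of the F test (and any that passed), and the 2 genes most correlated with each of the 10. Markers were named for their role. A few genes that these rules name are not reported here.

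Alternatives were a pseudocount of 0.1, no filter or 5 FPKM, median-of-ratios and quantile scaling, replicate blocks, fits of 2 groups, robust variance, library weights, voom on recovered reads, removal of GC and length trends, and leaving out each library. Trends removed without shFAM83H-AS1_1 replicate 3 was added after seeing the data. The main fit paired no libraries, and pairing by number was only an alternative. Between shNC and shFAM83H-AS1_2, deviations of libraries from their group mean had correlations of 0.196, 0.351 and 0.394 where the numbers were equal. No label names a shared batch. For shNC and shFAM83H-AS1_1 these correlations were 0.183, -0.393 and -0.246.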

Additional observations from a re-analysis of the deposited data

How the results depend on the processing

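Under the alternatives, the number of the 9 genes called stayed at 0 in each comparison, except with shFAM83H-AS1_1 against shNC when GC and length trends were removed, with and without the replicate block, where it was 1 (TARBP2, log2 difference -0.59, limma adjusted p = 0.0434 and with the replicate block 0.0472; 0.0434 to 0.347 over 23 alternatives). Of the log2 differences, 561 kept their side, 2 passed and 49 changed sign. The AGO2 share difference of -6.34 points ran from -8.09 to -3.70 with 1 library left out, and the exact permutation p over the 3 groups from 0.0536 to 0.193.

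None of the values that changed sign passed the test. With shFAM83H-AS1_1 against shNC and 1 library left out, DICER1 ran from -0.67 to 0.087 and AGO4 from -0.11 to 0.089. AGO4 was 0.034 with median-of-ratios, 0.073 with quantile scaling and 0.20 with trends removed, also with the block. With shFAM83H-AS1_2 against shNC and 1 library left out, AGO4 ran from -0.11 to 0.10 and TNRC6A from -0.096 to 0.14. AGO4 was 0.0034 with quantile scaling and 0.074 with trends removed, also with the block. Between the hairpins with 1 library left out, DROSHA ran from -0.045 to 0.42, XPO5 from -0.098 to 0.23, DICER1 from -0.33 to 0.43, AGO1 from -0.097 to 0.12 and AGO4 from -0.091 to 0.11. With trends removed, also with the block, XPO5 was -0.0084, DICER1 -0.068 and AGO1 -0.12, and AGO1 was -0.032 with median-of-ratios and -0.055 with quantile scaling. Library weights gave 0.013 for AGO1 and 0.15 for AGO4 with shFAM83H-AS1_1, 0.011 for DGCR8 and 0.22 for AGO4 with shFAM83H-AS1_2, and -0.045 for DROSHA, -0.13 for XPO5, -0.19 for DICER1, -0.068 for AGO1 and 0.073 for AGO4 between the hairpins. Trends removed without shFAM83H-AS1_1 replicate 3, added after seeing the data, gave 0.14 for DICER1 and 0.13 for AGO4 with shFAM83H-AS1_1, 0.075 for AGO4 with shFAM83H-AS1_2, and -0.045 for DROSHA, -0.11 for XPO5, -0.28 for DICER1 and -0.098 for AGO1 between the hairpins. The cause was not tested.

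Over all genes the count called with shFAM83H-AS1_1 was 187 and ran from 0 (replicate block, only these groups) to 2361 (library weights); it was 3 and 1 to 1119 with shFAM83H-AS1_2 (617 with libraries paired by number), 11 and 0 to 148 between the hairpins, and 44 and 7 to 2225 for the F test. The replicate block changed no other call among the 9 genes.

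With 3 libraries a group, even the narrowest 95% interval with shFAM83H-AS1_1, that of AGO1, ran from -0.53 to 0.11 on the log2 scale. Differences in that range, 0 included, cannot be told apart for this gene by the main fit. The interval is not adjusted over genes and is not a limit of detection for the other genes. DICER1 and AGO3 have the fewest reads, down to 85 and 126.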
